A study of Mus musculus with 2 samples.

Results

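The cell cycle genes described here are 44 named genes of the 55357 in the deposited gene list, chosen by symbol: 26 that act in mitosis and 18 that act around DNA replication (S phase). All 44 were found in the list and in the mm10 annotation. In all, 171007 of their UMIs (unique molecular identifiers, each counted as 1 captured RNA molecule) were in the library labelled SMYD3 knockdown and 162288 in the library labelled WT.

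Both libraries came from tumours of RENCA, a mouse kidney cancer line, engrafted orthotopically in BALB/c mice, and were made with droplet (10x Genomics) single-cell RNA-seq. One holds cells from tumours of the SMYD3 knockdown genotype and the other cells from WT tumours. SMYD3 is a lysine methyltransferase, and the comparison asks how its loss in the cancer cells bears on the cells around them. The series text describes flow sorting of cells positive for CD45, which white blood cells carry on their surface, whereas the sample labels name the cells epithelial and mention no sorting. The knockdown is a feature of the grafted cancer cells, so the host's macrophages, neutrophils, lymphocytes and dendritic cells carry no labelled change in either library. Each label has 1 library, so no difference between them has a replicate check and no p-value is given. The sources used here do not give how many animals or clones stand behind a library.

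A dividing cell copies its DNA in S phase and parts the copies in mitosis. S-phase genes encode the helicase and clamp of the replication fork, the enzymes that make nucleotides and the factors that license origins, and their transcription is driven by E2F factors near the passage from G1 into S phase. Mitotic genes encode the kinases, cyclins, spindle proteins and ubiquitin enzymes of division, and are transcribed mostly in G2 and M phase, in part through promoter elements named CCAAT and CHR (cell cycle genes homology region). In tumours both sets are transcribed by cancer cells and also by host cells that still divide, among them recruited monocytes, macrophages and dendritic cell precursors, whereas mature neutrophils do not divide.

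Proximal promoters of 6 members are shown because the letters of their known cell cycle elements differ between the lists. RefSeq promoter windows, from 250 bases before to 50 after the start (300 bases, GRCm38.p6), were available for 37 of the 44 members, as 39 windows. Capitals mark CCAAT (or ATTGG, the other strand), CHR-type letters (TTTGAA or TTTAAA, or TTCAAA on the other strand) and E2F-type letters (TTTCCCGC, TTTCGCGC, TTTGCCGC or TTTGGCGC, either strand), and matches that overlap run together. Each sequence reads 5′ to 3′ on the strand of its gene. The stretches are Cdk1 at chr10:69352919-69353072 (minus strand), Plk1 at chr7:122159275-122159434 (plus), Ube2c at chr2:164769769-164769917 (plus), Top2a at chr11:99024190-99024349 (minus), Mcm5 at chr8:75109349-75109508 (plus) and Mcm6 at chr1:128359706-128359865 (minus).
Cdk1: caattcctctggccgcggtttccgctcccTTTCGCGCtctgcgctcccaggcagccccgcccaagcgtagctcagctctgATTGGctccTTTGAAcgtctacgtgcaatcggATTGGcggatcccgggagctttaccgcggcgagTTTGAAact
Plk1: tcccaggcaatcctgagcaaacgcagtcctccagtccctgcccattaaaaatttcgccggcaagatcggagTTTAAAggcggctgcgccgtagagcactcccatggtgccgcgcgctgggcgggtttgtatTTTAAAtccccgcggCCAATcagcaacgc
Ube2c: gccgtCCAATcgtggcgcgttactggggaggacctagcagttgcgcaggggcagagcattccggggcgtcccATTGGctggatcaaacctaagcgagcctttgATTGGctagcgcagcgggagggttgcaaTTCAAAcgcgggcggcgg
Top2a: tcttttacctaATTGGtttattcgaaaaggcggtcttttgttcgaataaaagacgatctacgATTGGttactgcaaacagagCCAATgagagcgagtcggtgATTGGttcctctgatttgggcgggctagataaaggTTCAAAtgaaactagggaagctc
Mcm5: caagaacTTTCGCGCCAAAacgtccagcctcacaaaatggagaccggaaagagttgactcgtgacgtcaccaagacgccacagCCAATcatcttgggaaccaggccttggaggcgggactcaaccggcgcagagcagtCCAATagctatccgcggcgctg
Mcm6: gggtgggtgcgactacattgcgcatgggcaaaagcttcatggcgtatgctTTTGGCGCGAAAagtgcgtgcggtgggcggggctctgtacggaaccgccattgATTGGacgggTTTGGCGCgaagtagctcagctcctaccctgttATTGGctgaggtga

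CHR-type letters were in 19 of the 23 mitotic windows (82.6%), in 7 of the 16 S-phase windows (43.8%) and in 27.6% of all 32851 windows of the same length. E2F-type letters were in 6 of the 16 S-phase windows (37.5%), those of Cdt1, Mcm3, Mcm5, Mcm6, Mcm7 and Pclaf. Among mitotic windows they were in 1 of 23 (4.35%), that of Cdk1, and among all windows in 2.26%. CCAAT was in 82.6% of mitotic, 68.8% of S-phase and 37.4% of all windows. CCAAT and CHR-type letters stood together in 18 of 23 mitotic windows (78.3%), as in the stretches of Plk1, Ube2c and Top2a above, against 10.7% of all windows. The share was 5 of 16 S-phase windows (31.3%), among them that of Mcm5, whose CHR-type letters lie outside the stretch printed. The Mcm5 and Mcm6 stretches show E2F-type letters and CCAAT. A match is a run of letters and not evidence that a factor binds there.

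Barcodes needed 200 detected genes, 500 UMIs and a mitochondrial share of no more than 20%, and doublet calls were removed, which left 8784 cells in the library labelled SMYD3 knockdown (median 8675 UMIs) and 8079 in the library labelled WT (median 9439 UMIs). The libraries shared 22 barcode sequences. Smyd3 itself was no lower in the library labelled SMYD3 knockdown. Tumour-like cells had 30 Smyd3 UMIs (19.6 CPM, counts per 1e6 UMIs) in that library and 40 (17.1 CPM) in the other, a ratio of 1.14 (0.688 to 1.88), so the label was not seen in this gene. Intervals are exact 95% counting intervals and cover counting error only. Monocyte-macrophage-like cells, gated by markers that include no member, were 5974 (68.0%) and 6097 (75.5%) of the kept cells, led by F13a1, C1qc and Apoe. Tumour-like cells were few, 55 and 95. Pancreatic acinar-like cells, 218 in number, were gated under the SMYD3 knockdown label and none under the WT label. Acinar markers summed to 255 and 0.0282 CPM in monocyte-macrophage-like cells and to 1619 and 0.664 CPM in neutrophil-like cells, and their part in the results was not tested. Gates are ranges of a per-cell marker score: 112 and 91 of the monocyte-macrophage-like cells lay near the cut, meaning that a margin of 1.5-fold over the next class would have removed them.

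In monocyte-macrophage-like cells the mitotic list as a whole stood at almost the same level in both libraries, while the S-phase list was higher in the library labelled SMYD3 knockdown. Mitotic members summed to 1345 CPM there and 1328 CPM in the library labelled WT, a ratio of 1.01 (1.00 to 1.02) that fell to either side of 1 with the processing (0.999 with every cell weighed the same). S-phase members summed to 766 and 668 CPM, a ratio of 1.15 (1.13 to 1.16). Of the 18 S-phase members, 17 had a ratio above 1 and 14 had an interval wholly above 1, against 43.8% and 17.7% of all 15541 genes with at least 30 UMIs. Of the 26 mitotic members, 16 were above 1, with 7 intervals wholly above and 5 wholly below 1, and 25.0% of all genes had an interval wholly below 1. The median ratio was 1.13 for the S-phase list, 1.01 for the mitotic list and 0.978 for all genes. None of the 26 and none of the 18 members was 1.5-fold apart, a size that 8.68% of all genes passed, so the differences within these cells were small.

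Among mitotic kinases and checkpoint genes, 6 of 7 stood above 1. Cdk1, the kinase that starts mitosis, had 75.2 CPM (5530 UMIs) under the SMYD3 knockdown label and 62.1 CPM (4411 UMIs) under the WT label, a ratio of 1.21 (1.16 to 1.26), the farthest from 1 among mitotic members. Plk1, the Polo-like kinase of spindle assembly, had 16.6 and 14.8 CPM, a ratio of 1.12 (1.03 to 1.21). The other kinases lay closer to 1: the spindle pole kinase Aurka, the mitotic kinase Pbk and the spindle checkpoint genes Bub1 and Bub1b were between 1.00 and 1.04, and the passenger complex kinase Aurkb was at 0.983. The partners of Cdk1 did not share its ratio. Ccnb1, the main B-type cyclin, had 30.9 and 28.8 CPM (1.07, 1.01 to 1.14), a ratio that turned to 0.986 when every cell was thinned to 4000 UMIs. Ccna2, the A-type cyclin of S and G2 phase, stood at 1.03. Ccnb2, the other B-type cyclin, had 54.0 and 58.3 CPM (0.927, 0.888 to 0.969).

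All 3 genes of the anaphase step stood above 1. Ube2c, the ubiquitin-conjugating enzyme of the anaphase-promoting complex, had 121 and 116 CPM (1.05, 1.02 to 1.08). Pttg1, or securin, the protein destroyed to free the sister chromatids, had 53.2 and 47.4 CPM (1.12, 1.07 to 1.18). Cdc20, the activator of the complex, had 32.4 and 30.1 CPM (1.08, 1.02 to 1.14). Spindle and chromosome genes leaned the other way. Prc1, which bundles microtubules of the spindle midzone, had 48.9 and 52.4 CPM (0.933, 0.891 to 0.977). Kif11, a motor that pushes the spindle poles apart, had 20.6 and 22.3 CPM (0.924, 0.861 to 0.992). Of the other spindle genes, Nusap1 and Tpx2 were below 1 (0.951 and 0.965), whereas Hmmr stood at 1.03 and Knstrn at 1.00.

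The chromosome structure genes were all below 1. Mki67, which encodes the proliferation antigen that coats mitotic chromosomes, had 127 CPM (9331 UMIs) and 134 CPM (9547 UMIs), a ratio of 0.945 (0.918 to 0.972). Top2a, the topoisomerase that untangles sister DNA, had 103 and 109 CPM (0.947, 0.918 to 0.978), and the condensin gene Smc2 stood at 0.991. Mki67 and Cdk1, both common markers of dividing cells, thus lay on opposite sides of 1. In the centromere and passenger complex group, Birc5 (survivin) had 108 and 100.3 CPM (1.08, 1.05 to 1.12), while Cdca8 (borealin), the centromere histone Cenpa and the kinetochore gene Cenpf lay between 0.977 and 1.03. By group, the summed ratios were 1.09 for kinases, 1.07 for anaphase genes, 1.03 for centromere genes, 0.992 for cyclins, 0.964 for spindle genes and 0.957 for chromosome genes.

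**Figure D1:**
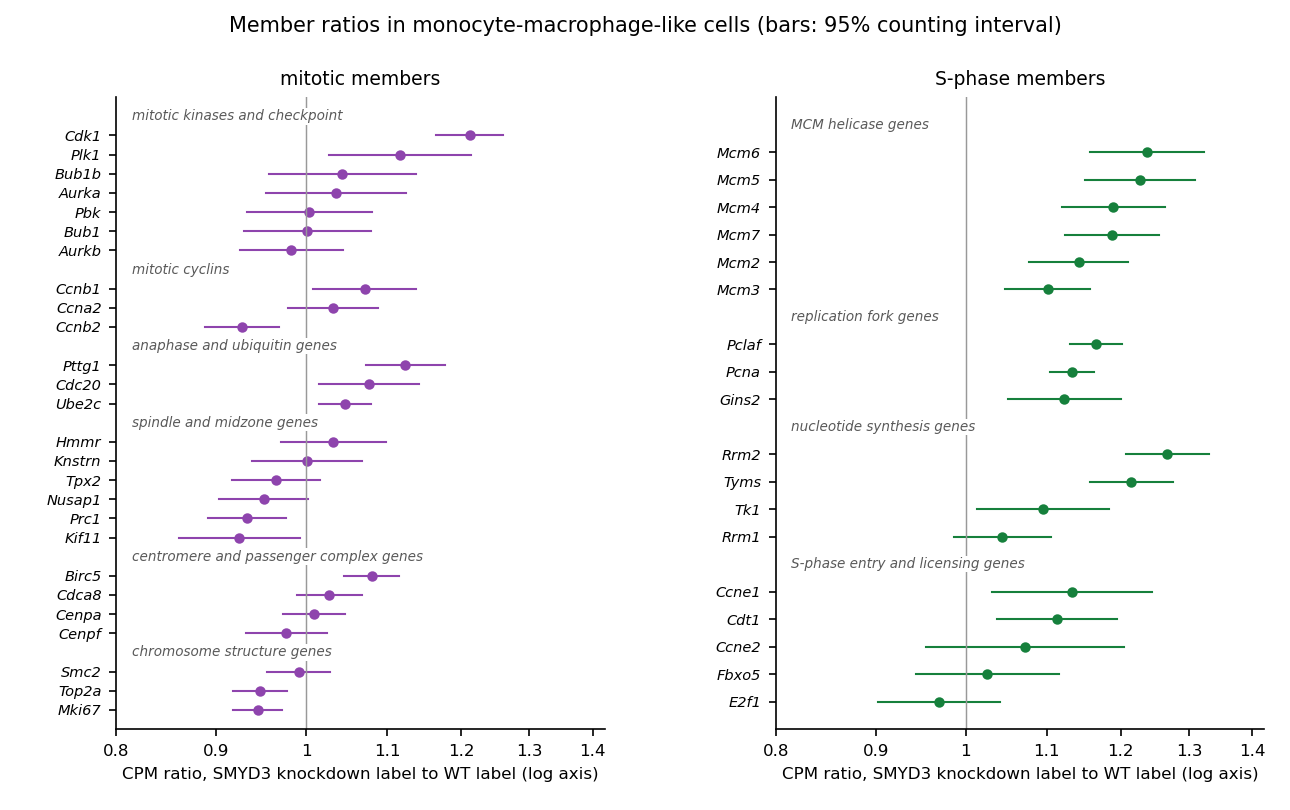
Ratio of CPM in monocyte-macrophage-like cells, library labelled SMYD3 knockdown over library labelled WT, on a log axis, for each of the 26 mitotic (left) and 18 S-phase (right) members grouped by role. Points are ratios and bars exact 95% counting intervals; 17 of 18 S-phase members and 16 of 26 mitotic members lie above 1, and none reaches 1.5-fold.

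The S-phase members leaned 1 way in nearly every role. All 6 subunits of the MCM helicase, which opens DNA ahead of the fork, stood above 1, and the group summed to 207 and 177 CPM (ratio 1.17). Mcm6 had 26.8 and 21.6 CPM (1.24, 1.16 to 1.32) and Mcm5 had 29.1 and 23.7 CPM (1.23, 1.15 to 1.31). The rest of the helicase ranged from 1.10 for Mcm3 (45.8 and 41.6 CPM) to 1.19 for Mcm4 and Mcm7. These subunits act as 1 ring, and their ratios spanned a range of 1.10 to 1.24.

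The 3 fork genes also stood above 1. Pcna, the sliding clamp of the DNA polymerases and the S-phase member with the most UMIs, had 174 CPM (12800 UMIs) and 154 CPM (10920 UMIs), a ratio of 1.13 (1.10 to 1.16). Pclaf, which binds that clamp, had 124 and 106 CPM (1.17, 1.13 to 1.20). Gins2, of the helicase-activating GINS complex, had 26.0 and 23.2 CPM (1.12). Nucleotide synthesis genes held the farthest member of either list. Rrm2, the regulated subunit of ribonucleotide reductase, had 51.7 CPM (3799 UMIs) and 40.8 CPM (2897 UMIs), a ratio of 1.27 (1.21 to 1.33). Its partner Rrm1, the larger subunit, had 33.7 and 32.3 CPM (1.04, 0.986 to 1.11), an interval that included 1. Tyms, thymidylate synthase, had 50.2 and 41.4 CPM (1.21, 1.16 to 1.28), and the thymidine kinase gene Tk1 stood at 1.09 (1.01 to 1.18).

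Genes of S-phase entry and licensing were the least shifted S-phase group, at 80.4 and 76.3 CPM (1.05). The origin licensing factor Cdt1 had 22.8 and 20.5 CPM (1.11, 1.04 to 1.20). Cyclin E, the partner of the kinase that starts S phase, is encoded by Ccne1 (13.2 and 11.6 CPM; 1.13, 1.03 to 1.24) and Ccne2 (8.41 and 7.84 CPM; 1.07, 0.955 to 1.20). Fbxo5, an inhibitor of the anaphase-promoting complex, stood at 1.03. E2f1, which encodes one of the factors that drive the S-phase genes, was the only S-phase member below 1, with 20.6 and 21.2 CPM (0.969, 0.902 to 1.04).

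Cell cycle genes outside the 44 members were counted in the same cells. Of 33 other S-phase genes, 30 stood above 1 and 22 had an interval wholly above 1 (median 1.14), against the 43.8% and 17.7% of all genes, led by the uracil glycosylase gene Ung (1.32), the licensing factor Cdc6 (1.29) and the single-strand binding protein gene Rpa2 (1.24). Of 37 other mitotic genes, 21 stood above 1 (median 1.03), which is not far from the 43.8%, led by the spindle gene Tacc3 (1.28) and the tubulin genes Tuba1b (1.26) and Tubb4b. Of 9 genes for G1 cyclins, their kinases and G1 transcription factors, 7 stood above 1 (median 1.10). Among them were the growth regulator Myc at 1.36 (1.31 to 1.42; 6449 and 4572 UMIs) and E2f2 at 1.32 (1.18 to 1.47). Ccnd2 (0.867) was on the other side. Of the cycle inhibitors and repressors, 6 of 16 stood above 1 (median 0.933), a share near that of all genes, with Cdkn1b at 0.763 and Btg2 at 0.778. In that list 2 genes passed 1.5-fold, both higher, against 2.45% of all genes in that direction. They were Cdkn2b (557 and 269 UMIs; 2.00, 1.73 to 2.32) and Cdkn2a (404 and 217 UMIs; 1.80, 1.52 to 2.13), both inhibitors of the G1 kinases.

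Shares of cells went the same way as the levels for the S-phase list, whereas for the mitotic list the direction depended on the minimum of UMIs. Cells with at least 4000 UMIs were thinned to exactly 4000, which left out 667 and 708 shallower monocyte-macrophage-like cells. At that depth, at least 3 S-phase UMIs were seen in 25.3% of 5307 cells with the SMYD3 knockdown label and in 21.4% of 5389 with the WT label, a difference of 3.93 percentage points (2.33 to 5.53). At least 3 mitotic UMIs were seen in 20.6% and 19.0%, a difference of 1.59 points (0.0832 to 3.10) that turned to -1.16 points with a minimum of 1 UMI. Without thinning the S-phase shares were 52.6% and 49.0% and the mitotic shares 37.4% and 35.6%. Taken jointly, S-phase UMIs alone marked 11.4% and 9.52% of cells, both lists 13.8% and 11.8%, mitotic UMIs alone 6.76% and 7.18%, and neither 67.9% and 71.5%. The difference was 1.92 points (0.758 to 3.08) for S phase alone, 2.01 points (0.743 to 3.28) for both and -0.417 points (-1.38 to 0.550) for mitotic alone.

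A small number of cells carried most mitotic RNA. Cells with at least 10 mitotic UMIs at this depth were 11.1% and 11.4% of the gate and held 78.0% and 78.9% of its mitotic UMIs. For S phase, 6.22% and 4.77% of cells had at least 10 UMIs. In unthinned counts, the 206 highest cells of each library held 50% of all mitotic UMIs, which is 3.45% and 3.38% of cells. For the S-phase list the same share took 392 and 338 cells (6.56% and 5.54%). Cells with at least 3 mitotic UMIs carried other mitotic genes too, none of which chose them: all 37 on that list were at least 2-fold higher than in cells with 0 mitotic UMIs in both libraries (median 27.4-fold and 26.2-fold), as were 4.07% of all 10724 genes measured.

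Members differed in how tightly they were tied to such cells. For each member, cells were classed by the UMIs of the other members only. Of the UMIs of Nusap1, 1.12% and 3.63% lay in cells with under 3 such mitotic and under 3 such S-phase UMIs. For Hmmr, another spindle gene, the shares were 1.06% and 3.72%. Plk1 was as tight, at 4.23% and 1.52%. The centromere histone gene Cenpa was the loosest of the mitotic members named here, at 26.2% and 27.6%. Several S-phase members spread more widely, with Pcna, E2f1 and Cdt1 the loosest. Of their UMIs, 46.8% and 53.5% (Pcna), 52.6% and 54.6% (E2f1) and 47.3% and 49.1% (Cdt1) lay in cells marked by neither list. Rrm2 behaved like a mitotic member here, at 5.43% and 6.36%. A member's own UMIs did not count toward the class of its cell here, and these shares are given as a description. Depth moved with the classes taken over all members: cells marked by both lists had a median of 19263 and 18041 UMIs before thinning, against 11332 and 11003 in cells marked by neither. Doublet calls, before their removal, were also set against classes by unthinned counts. They took 13.8% and 11.2% of cells with at least 3 mitotic UMIs and 6.15% and 6.05% of the other monocyte-macrophage-like cells. The median depth of these unthinned classes was 16339 and 15119 UMIs against 9574 and 9071. With doublets kept, 17 of 18 S-phase and 20 of 26 mitotic members stood above 1. With cells thinned to one depth, 17 of 18 S-phase and 12 of 26 mitotic members did.

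**Figure D2:**
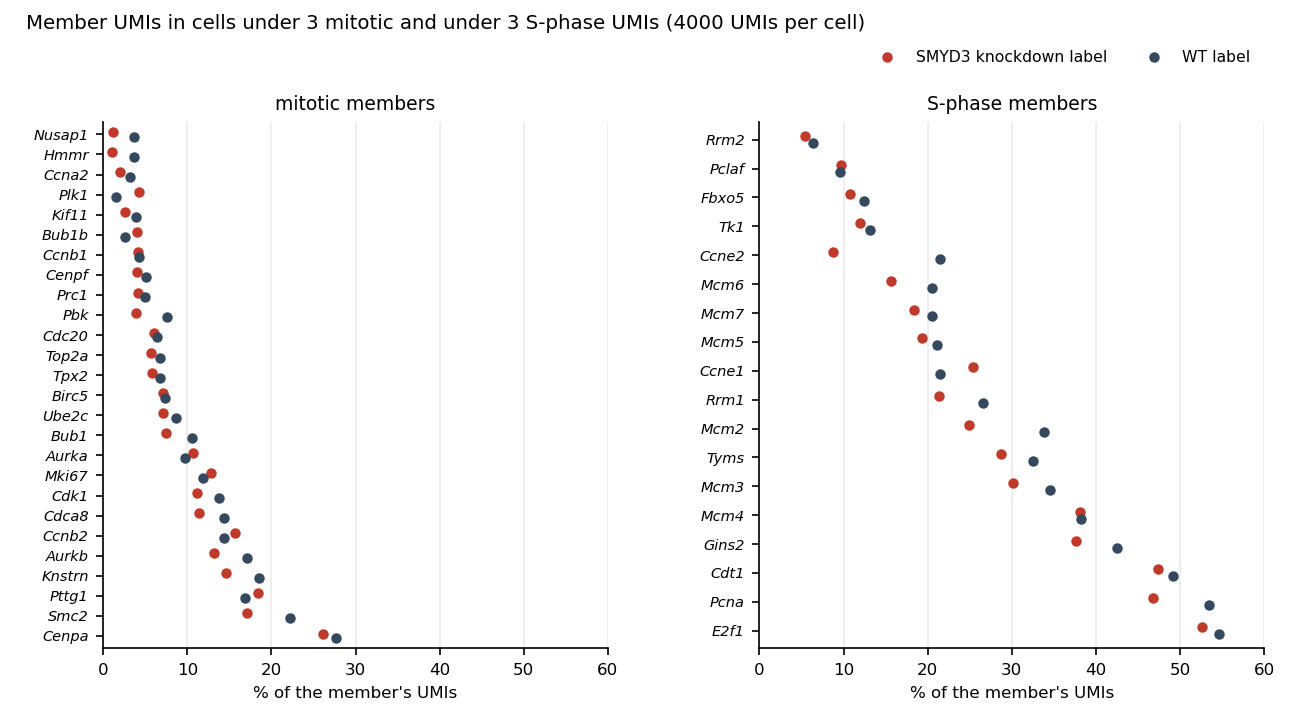
Percentage of each member's UMIs that lie in monocyte-macrophage-like cells with under 3 mitotic and under 3 S-phase UMIs of the other members, at 4000 UMIs per cell, for both libraries. Nusap1, Hmmr and Plk1 lie under 5% in both libraries, whereas Pcna, E2f1 and Cdt1 lie between 46.8% and 54.6%.

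Across cell types, list levels were lowest in neutrophil-like and migratory dendritic cells in both libraries. Neutrophil-like cells (1758 and 1101; median 1394 and 1307 UMIs), led by S100a9, G0s2 and Retnlg, served as the background, as a cell type that should lack these genes. They held 158 and 183 mitotic CPM and 150 and 139 S-phase CPM. Thinning to 1000 UMIs left out 292 and 216 shallower neutrophil-like cells. Of the 1466 and 885 that remained, 13.03% and 14.9% had a mitotic UMI. In monocyte-macrophage-like cells (median 11594 and 11023 UMIs) the shares were 27.3% and 26.0%. For S phase the shares were 12.6% and 12.9% in neutrophil-like cells and 32.7% and 28.9% in monocyte-macrophage-like cells. Without thinning, 19.2% and 19.6% of neutrophil-like cells had a mitotic UMI, and 7 and 10 cells had 3 or more. Pcna made up 52.7% and 58.9% of their S-phase UMIs, whereas its share was 22.7% and 23.0% in monocyte-macrophage-like cells. Of 7 mitotic members with at least 30 UMIs in neutrophil-like cells, 1 was past 1.5-fold, a share near the 14.8% of all genes, and of 3 S-phase members, 1.

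**Figure D3:**
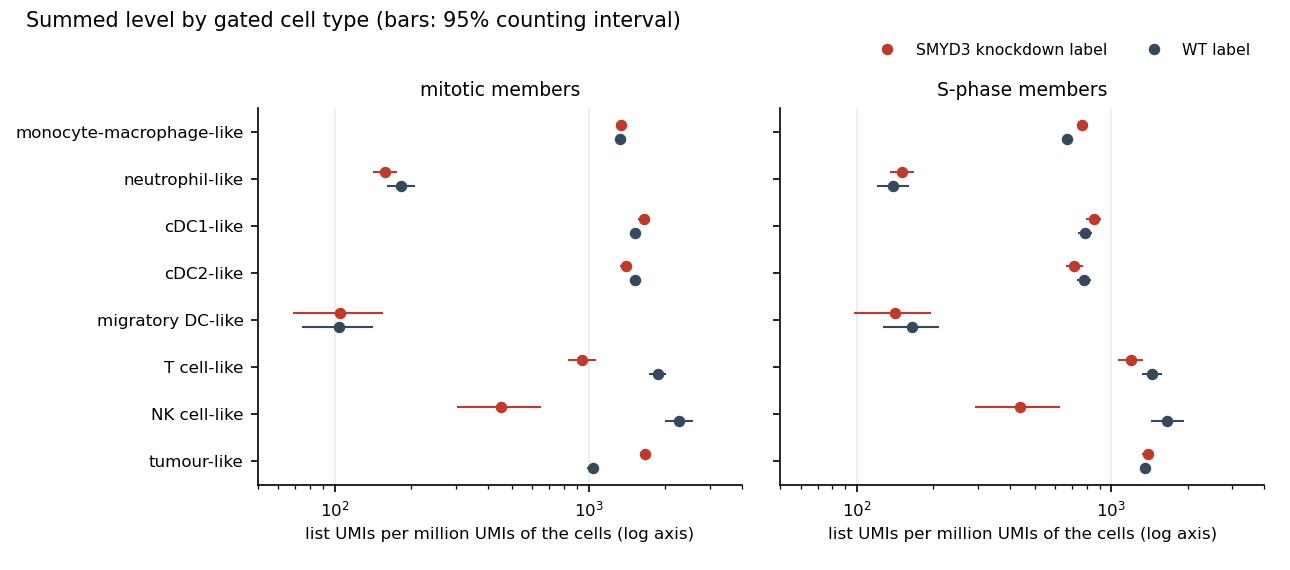
Summed UMIs of the mitotic and the S-phase list, as CPM, in each marker gate, on a log axis, for both libraries. Neutrophil-like and migratory dendritic cells lie between 104 and 183, whereas monocyte-macrophage-like cells lie between 668 and 1345.

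Conventional dendritic cells held as much mitotic RNA by CPM as monocyte-macrophage-like cells. The cDC1-like cells (114 and 139) had 1651 and 1522 mitotic CPM (1.08, 1.02 to 1.15), a ratio that turned to 0.902 after thinning, and 854 and 788 S-phase CPM (1.08, 1.00 to 1.17). There 3 of 26 mitotic members were past 1.5-fold, all higher, against 4.62% of all genes in that direction (12.3% in either). They were Pbk (27 and 14 UMIs; 2.36, 1.20 to 4.87), Ccnb2 (123 and 96; 1.57, 1.19 to 2.07) and Kif11 (55 and 44; 1.53). No S-phase member of the 17 measured was. The cDC2-like cells (97 and 132) leaned the other way, with 1400 and 1526 mitotic CPM (0.918, 0.864 to 0.975) and 716 and 782 S-phase CPM (0.916, 0.841 to 0.998), the latter ratio turning to 1.01 after thinning. There 5 of 26 mitotic members were past 1.5-fold, against 13.1% of all genes, with Bub1 and Pbk higher and Ccnb1, Pttg1 and Plk1 lower, and without the highest cell of each library 3 were. In thinned cells the share with at least 3 mitotic UMIs differed by 9.14 points in cDC1-like cells (-1.90 to 20.2) and -6.16 points in cDC2-like cells (-17.0 to 5.43), so neither difference exceeded counting error. Migratory dendritic cells, the matured form marked by Ccr7, held 105 and 104 mitotic CPM, below the neutrophil-like level, with 27 and 43 mitotic UMIs in 35 and 51 cells and no Pclaf or Nusap1 UMI in either library.

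Lymphocyte-like gates were small and gave mitotic levels that were lower under the SMYD3 knockdown label. The T cell-like cells (89 and 124), led by Cd3g, Ccl5 and Trbc2, had 944 mitotic CPM (277 UMIs) and 1868 CPM (787 UMIs), a ratio of 0.505 (0.439 to 0.580). Of 13 mitotic members with at least 30 UMIs there, 11 were at least 1.5-fold lower, against 10.8% of all genes. Top2a had 36 and 101 UMIs (0.512), Ccnb2 4 and 27 (0.213, 0.0541 to 0.610) and Mki67 60 and 109 (0.790, 0.567 to 1.09). Within this gate NK cell markers summed to 293 and 664 CPM, neutrophil markers to 443 and 266 CPM and pancreatic acinar markers to 838 and 0 CPM, and their part in these values was not tested. The counts came from very few cells: 2 cells held 50% of the mitotic UMIs in the library labelled SMYD3 knockdown and 3 in the library labelled WT, and the highest single cells held 37.5% and 24.5%. Without the highest cell of each library the ratio was 0.426, all 9 measured members were below 1 and 8 were at least 1.5-fold lower. S-phase members of T cell-like cells had 1192 and 1450 CPM (0.822, 0.719 to 0.939), a ratio that turned to 1.19 with every cell weighed the same. Of 12 measured, 3 were at least 1.5-fold lower, among them Pclaf (44 and 127 UMIs; 0.497, 0.345 to 0.706) and Rrm2 (17 and 52; 0.469), while Pcna had 66 and 79 UMIs (1.20, 0.852 to 1.68). At 1000 UMIs per cell, a mitotic UMI was seen in 22.7% (14.5 to 32.9) and 31.1% (23.1 to 40.2) of T cell-like cells, intervals that overlap. Without thinning the mitotic shares were 64.0% and 57.3%. An S-phase UMI was seen at 1000 UMIs per cell in 47.7% and 33.6%. That difference of 14.1 points (0.730 to 27.0) went in the other direction from the CPM, so no order is read from these shares.

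NK cell-like cells numbered 17 and 31, and 1 cell in each library held most of the mitotic UMIs, 20 of 31 and 169 of 280. Their mitotic level was 451 and 2275 CPM (0.198, 0.132 to 0.288) and their S-phase level 437 and 1665 CPM (0.262, 0.173 to 0.386). Both measured mitotic members, of which Mki67 (4 and 52 UMIs) is one, were at least 1.5-fold lower, against 17.5% of all genes. Without the highest cells no mitotic and no S-phase member reached 30 UMIs, so no member ratio could be given without them. The list ratios rest on few cells. At 1000 UMIs per cell the share of NK cell-like cells with a mitotic UMI was 23.5% (6.81 to 49.9) and 32.3% (16.7 to 51.4).

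Tumour-like cells, led by Cryab, Krt8 and Krt18, are the cells in which the knockdown would act. Their mitotic level was 1666 CPM (2551 UMIs) under the SMYD3 knockdown label and 1035 CPM (2419 UMIs) under the WT label, a ratio of 1.61 (1.52 to 1.70), while the S-phase level was 1390 and 1363 CPM (1.02, 0.965 to 1.08). Of 26 mitotic members, 25 were above 1, as were 44.5% of all genes, and 14 were at least 1.5-fold higher, against 4.38% of all genes in that direction (median 1.51, all genes 0.968). One cell of the library labelled SMYD3 knockdown, with 83088 UMIs, held 790 of these mitotic UMIs (31.0%), whereas the highest cell of the library labelled WT held 190 (7.85%). Without these cells the list ratio was 1.24, and 7 of the 24 members still measured were at least 1.5-fold higher and 1 lower.

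Ube2c had 257 UMIs (168 CPM) and 106 UMIs (45.4 CPM) in tumour-like cells, a ratio of 3.70 (2.94 to 4.68) that was 1.69 (1.29 to 2.23) without the highest cells. Ccnb1 had 47 and 20 UMIs (3.58, 2.08 to 6.39), and 1.99 (1.04 to 3.84) without them. Pttg1 depended less on 1 cell, with 184 and 150 UMIs (1.87) and 1.80 (1.43 to 2.28) without them. Others crossed 1: Top2a went from 1.56 to 0.854 and Cdk1 from 1.51 to 0.931. The share of tumour-like cells with at least 3 mitotic UMIs at 4000 UMIs per cell was 39.6% of 48 and 35.7% of 70, a difference of 3.87 points (-13.3 to 21.3), within counting error. Among S-phase members, Mcm5 (57 and 56 UMIs; 1.55, 1.05 to 2.29) was past 1.5-fold higher, and Fbxo5 (16 and 60; 0.407, 0.219 to 0.715) and Ccne2 (25 and 58; 0.657) were past it lower, as were 8.95% of all genes. Monocyte-macrophage markers summed to 480 and 731 CPM in the tumour-like cells and pancreatic acinar markers to 182 and 0 CPM, and their part in these values was not tested.

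Within monocyte-macrophage-like cells, 9 states were gated by named marker genes, and the lists stood in a similar order of states in both libraries. The states are ranges of a score, and 653 and 688 of the 1335 and 1424 cells given no state lay near a cut, against 13 to 90 cells within a state. Mitotic levels were highest in the Lyve1 Cd163 state (1654 and 1507 CPM), the Cx3cr1 Vcam1 state (1585 and 1394 CPM) and the Car4 Vcan state (1467 and 1563 CPM). They were lowest in the Ly6c2 Plac8 state at 467 and 433 CPM, and in the Nos2 Inhba state, at 488 and 607 CPM. The Ly6c2 Plac8 state lay 3.55-fold and 3.61-fold below the highest state of its library. The rank order of the 9 states was similar between libraries, with Spearman's rho of 0.933 for the mitotic and 0.817 for the S-phase list, given as a description.

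**Figure D4:**
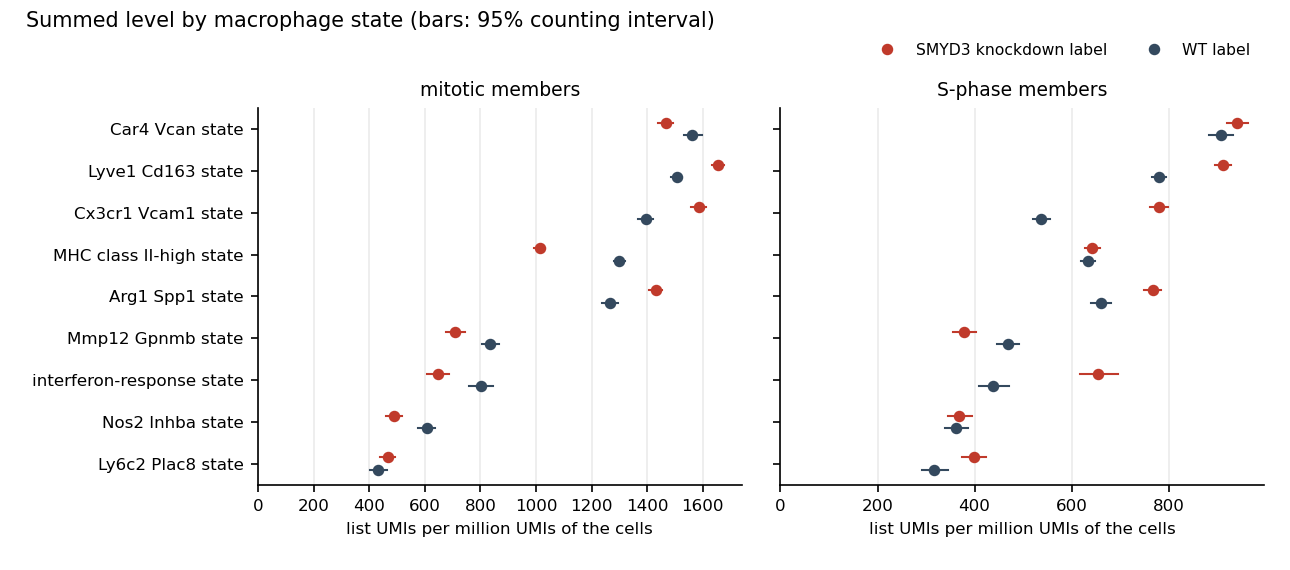
Summed UMIs of the mitotic and the S-phase list, as CPM, in each of the 9 macrophage states, on a linear axis, for both libraries. Mitotic levels run from 433 in the Ly6c2 Plac8 state to 1654 in the Lyve1 Cd163 state.

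The ratio between libraries differed in direction among states. For the mitotic list it was 1.10 (1.08 to 1.12) in the Lyve1 Cd163 state, 1.14 (1.11 to 1.17) in the Cx3cr1 Vcam1 state and 1.13 (1.10 to 1.16) in the Arg1 Spp1 state. It was 0.780 (0.761 to 0.800) in the MHC class II-high state, 0.805 (0.745 to 0.870) in the Nos2 Inhba state and 0.939 (0.913 to 0.965) in the Car4 Vcan state. The near-equal mitotic level of the whole gate was thus a sum of states above 1 and states below 1. For the S-phase list 8 of 9 states were above 1, of which 6 had an interval wholly above 1, and the Mmp12 Gpnmb state was below (0.808, 0.745 to 0.876). Shares of cells with at least 3 S-phase UMIs at 4000 UMIs per cell followed the levels less closely. They were lower under the SMYD3 knockdown label in the Nos2 Inhba (7.44% and 11.4%), MHC class II-high (19.8% and 21.9%), Car4 Vcan (28.9% and 31.0%) and Mmp12 Gpnmb (16.4% and 16.7%) states, within counting error in each. These differences between states were not tested, since each state has 1 library a label.

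The Cx3cr1 Vcam1 state (679 and 652 cells) showed the S-phase difference most broadly. Its S-phase level was 780 and 538 CPM (1.45, 1.39 to 1.51), all 18 S-phase members were above 1 (48.8% of all genes) and 8 were at least 1.5-fold higher, against 3.75% of all genes in that direction (median 1.49, all genes 0.995). Rrm2 had 39.1 CPM (340 UMIs) and 16.0 CPM (118 UMIs), a ratio of 2.44 (1.97 to 3.03). Ccne1 had 113 and 47 UMIs (2.03) and Mcm5 261 and 117 UMIs (1.89), and Mcm4, Mcm6, Ccne2, Fbxo5 and Pclaf lay between 1.52 and 1.76. These 8 genes span all 4 S-phase roles, from cyclin E to the helicase, the clamp's partner and nucleotide synthesis. Of its 26 mitotic members, 23 were above 1 and 1, Pbk (1.68), was past 1.5-fold, while Cdk1 had 746 and 434 UMIs (1.45). The share of cells with at least 3 S-phase UMIs at 4000 UMIs per cell was 30.0% and 19.3%, a difference of 10.7 points (5.86 to 15.4). Median depth before thinning was 12366 and 10833 UMIs.

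The Lyve1 Cd163 state (951 and 1172 cells) had 912 and 780 S-phase CPM (1.17, 1.14 to 1.20), and 17 of 18 S-phase and 23 of 26 mitotic members were above 1, as were 55.0% of all genes. None was past 1.5-fold, as were 7.4% of all genes. Prc1 (697 and 942 UMIs) was the one mitotic member there with an interval wholly below 1, at 0.835. Its share of cells with at least 3 S-phase UMIs was 31.2% and 23.4%, a difference of 7.80 points (3.81 to 11.8), and with at least 3 mitotic UMIs 24.9% and 19.5%, a difference of 5.36 points (1.64 to 9.12). In the Arg1 Spp1 state (689 and 507 cells), 24 of 26 mitotic and 14 of 18 S-phase members were above 1 (47.7% of all genes), and 2 S-phase members, Fbxo5 (1.71) and Rrm2 (1.63), were past 1.5-fold higher, against 3.78% of all genes.

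The MHC class II-high state (833 and 944 cells), marked by antigen presentation genes, leaned the other way for mitosis. Its mitotic level was 1014 and 1299 CPM, and 1 of 26 mitotic members was above 1, against 42.6% of all genes. An interval wholly below 1 was seen for 22 of them, against 19.6% of all genes (median ratio 0.776, all genes 0.969). Cdk1 (429 and 495 UMIs; 1.08) was the exception. Hmmr (148 and 292 UMIs; 0.633), Prc1 (318 and 606; 0.656) and Nusap1 (250 and 470; 0.664), all spindle genes, were at least 1.5-fold lower, against 5.49% of all genes. Its S-phase level was 643 and 634 CPM, with 11 of 18 S-phase members above 1 and Tk1 (85 and 173 UMIs; 0.614) alone past 1.5-fold. The share with at least 3 mitotic UMIs was 15.1% and 19.2%, a difference of -4.17 points (-7.77 to -0.529). Of the 833 and 944 cells, 26 and 37 held 50% of the mitotic UMIs. Median depth before thinning was 11040 and 12483 UMIs.

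**Figure D5:**
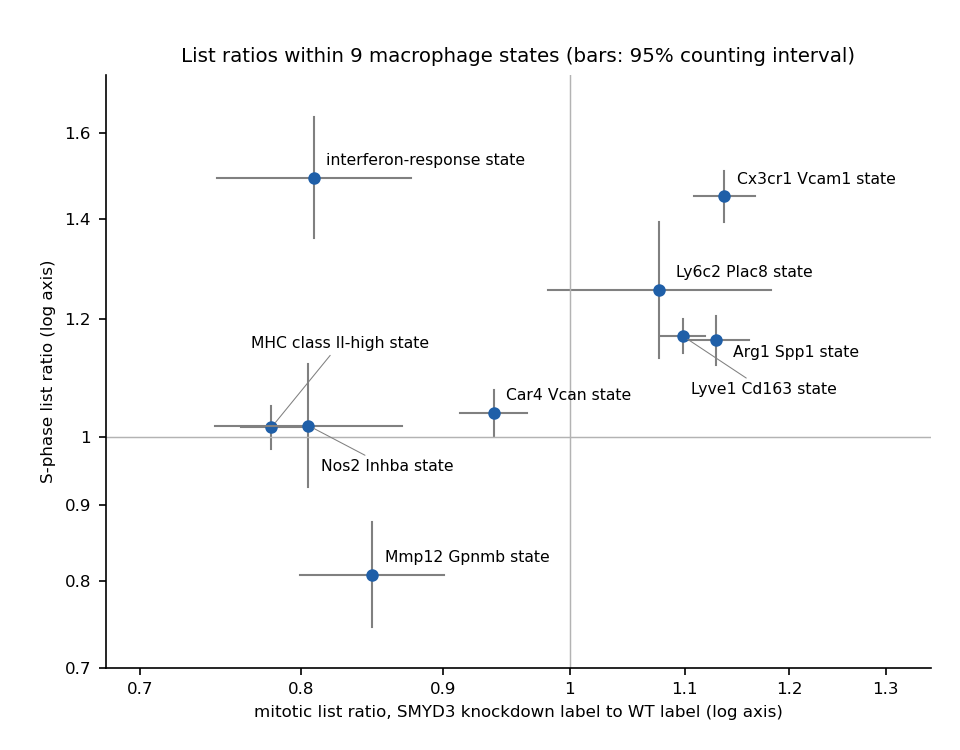
Ratio of the mitotic list (x axis) against ratio of the S-phase list (y axis), library labelled SMYD3 knockdown over library labelled WT, in each of the 9 macrophage states, both axes logarithmic. The Cx3cr1 Vcam1 state lies at 1.14 and 1.45, the MHC class II-high state at 0.780 and 1.01, and the Mmp12 Gpnmb state is below 1 on both.

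In the Car4 Vcan state (563 and 435 cells) 11 of 26 mitotic members were above 1, with 4 intervals wholly above and 8 wholly below 1. Mki67 had 156 and 216 CPM (0.725, 0.669 to 0.785) and Top2a stood at 0.793, whereas Cdk1 and Cdc20 stood at 1.32 and Ccnb1 at 1.30. None of its members was past 1.5-fold, against 8.03% of all genes. The interferon-response state (147 and 170 cells) had an S-phase level of 655 and 439 CPM (1.49, 1.36 to 1.64), beside a mitotic ratio of 0.808 (0.746 to 0.876). The share of its cells with at least 3 mitotic UMIs was not lower, at 15.7% and 15.3%, and 4 and 5 cells held 50% of its mitotic UMIs. Of its 16 measured S-phase members, 6 were at least 1.5-fold higher, against 5.89% of all genes, and Rrm2 had 69 and 15 UMIs (4.85, 2.75 to 9.14). In the library labelled SMYD3 knockdown 8 cells held 50% of those S-phase UMIs, and without the highest cell of each library the S-phase ratio was 1.36, below that of the Cx3cr1 Vcam1 state. Of its 22 measured mitotic members, 6 were at least 1.5-fold lower (7.01% of all genes).

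The remaining states also held few cells, and each had a lower mitotic CPM than the MHC class II-high state in both libraries. In the Mmp12 Gpnmb state (195 and 297 cells) 6 of 16 measured S-phase members were at least 1.5-fold lower, against 8.33% of all genes, and 2 were above 1 (39.5% of all genes). Its mitotic ratio of 0.849 turned to 1.15 after thinning. In the Nos2 Inhba state (245 and 237 cells) 5 of 23 measured mitotic members were at least 1.5-fold lower, against 7.08% of all genes, among them Ube2c (68 and 152 UMIs; 0.457) and Prc1 (0.463), and 1 was higher (3.83%). In the Ly6c2 Plac8 state (337 and 259 cells) 3 of 19 measured mitotic members were higher and 3 lower, against 5.98% and 5.53% of all genes, and the S-phase level was 398 and 317 CPM. Median depth in that state was 6638 and 6387 UMIs, the lowest of the states.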

How the data were processed

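The deposited matrix holds whole UMI counts per gene and cell for both libraries, made with Cell Ranger 7.1.0 against mm10 per the submitters' processing notes. The annotation release, and whether depth was equalised when the libraries were merged, are not given in the sources used here. Barcodes were tied to libraries through a deposited barcode table: suffix 2 held 10186 barcodes of the library labelled SMYD3 knockdown (95803321 UMIs, median 8310) and suffix 1 held 9265 of the library labelled WT (91523767 UMIs, median 9119). After the filters on genes, UMIs and mitochondrial share, 9507 and 8682 cells remained. Doublets were scored with Scrublet in scanpy 1.11.5, and top-scoring cells (723 and 603) were dropped, at a rate of 0.8% for each 1000 cells loaded into the caller.

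Cells were gated by mean marker score, needing at least 3 detected markers and a score 1.25 times that of the next class. Macrophage states needed a mean z score of at least 0.5 and a margin of 0.25 over the next state, and cells within 0.1 of a cut were counted as near it. No member is a marker. Counts of each member were summed per gate and library and divided by the gate's total UMIs (CPM). UMIs were not scaled by gene length, so levels of different genes are not ranked. Ratios carry exact conditional binomial intervals, shares exact Clopper-Pearson intervals and differences of shares Newcombe intervals, at 95%. Genes needed 30 UMIs over both libraries to be counted against 1.5-fold. Ratio code was checked on simulated counts. Python 3.11.15, numpy 2.4.6, scipy 1.17.1, pandas 2.3.3 and matplotlib 3.10.9 were used.

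Every member is accounted for. Named with values were the 4 members of each list with the most UMIs and the 4 farthest from a ratio of 1 in monocyte-macrophage-like cells, and the highest member of each role group. Up to 4 genes of each other cell cycle list were named too. Outside the lists, the 10 highest and 10 lowest genes between cells with at least 3 and with 0 mitotic UMIs were eligible at 50 CPM or more. Members named in other gates and states were chosen after their values were seen. The members, the gene lists and the markers were chosen with earlier results of these data known. Promoter windows came from RefSeq (GRCm38.p6) and were matched by symbol. Counts were used as deposited, so reads shared with near-identical copies may be split.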

Additional observations from a re-analysis of the deposited data

Results flagged for a closer look

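The ratio between the libraries (labelled SMYD3 knockdown over labelled WT) lay on opposite sides of 1 in different gates, at least 10% from 1 and with intervals that left out 1, and these differences between gates were not tested. For the mitotic list these were tumour-like cells at 1.61, T cell-like cells at 0.505 and NK cell-like cells at 0.198. For the S-phase list they were monocyte-macrophage-like cells at 1.15, T cell-like cells at 0.822 and NK cell-like cells at 0.262. The S-phase ratio of T cell-like cells turned above 1 with every cell weighed the same. NK cell-like cells numbered 17 and 31, and 1 tumour-like cell of the library labelled SMYD3 knockdown held 31.0% of that gate's mitotic UMIs there.

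Ratios by the same rule also lay on opposite sides of 1 among macrophage states, where the differences were likewise not tested. The mitotic ratio was 1.14 in the Cx3cr1 Vcam1 state and 1.13 in the Arg1 Spp1 state. It was 0.780 in the MHC class II-high state, 0.805 in the Nos2 Inhba state, 0.808 in the interferon-response state and 0.849 in the Mmp12 Gpnmb state, the last turning above 1 after thinning. The S-phase ratio was 1.17 in the Lyve1 Cd163 state, 1.45 in the Cx3cr1 Vcam1 state, 1.16 in the Arg1 Spp1 state, 1.26 in the Ly6c2 Plac8 state and 1.49 in the interferon-response state, and 0.808 in the Mmp12 Gpnmb state.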

How the results depend on the processing

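No paired analysis was possible because each label has 1 library. Of the 18 S-phase members, 17 stood above 1 in monocyte-macrophage-like cells under each of the 7 alternatives run for the members; of the 26 mitotic members, 12 (thinned) to 20 (doublets kept) did. Causes were not tested.

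With every cell weighed the same, mitotic ratios were 0.999 in monocyte-macrophage-like, 0.924 in cDC1-like, 0.862 in cDC2-like, 1.80 in migratory dendritic, 0.761 in T cell-like, 0.407 in NK cell-like and 1.74 in tumour-like cells, and 1.09 in the Mmp12 Gpnmb state; S-phase ratios were 1.17, 1.19 (T), 0.576 (NK) and 0.891 (tumour). Thinned to 4000 UMIs, mitotic ratios were 0.991 in monocyte-macrophage-like, 0.902 in cDC1-like, 0.829 in cDC2-like and 1.22 in tumour-like cells and 1.15 in the Mmp12 Gpnmb state, S-phase ratios 1.01 in cDC2-like and 1.12 in tumour-like cells, and Ccnb1 0.986. With doublets kept, mitotic ratios were 1.05 in monocyte-macrophage-like, 0.422 in migratory dendritic and 1.74 in tumour-like cells and 1.02 in the Mmp12 Gpnmb state, the S-phase ratio was 1.17 and the mitotic share 21.9% in the library labelled SMYD3 knockdown. Scaling by the median ratio of genes gave 1.03 and 1.17 in monocyte-macrophage-like cells, and moved no gate or state by more than 0.08 on the log2 scale. A stricter gate gave a mitotic ratio of 0.729 in cDC2-like cells.

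At a minimum of 1 UMI, the shares of monocyte-macrophage-like cells were 51.6% and 52.8% (mitotic, a difference of -1.16 points) and 67.1% and 64.8% (S phase, 2.28 points). At 5 UMIs they were 15.4% and 14.7%, and 15.0% and 11.3%. Without thinning they were 37.4% and 35.6%, and 52.6% and 49.0%. With at least 100 UMIs, members past 1.5-fold were 0 and 0 (mitotic and S-phase) in neutrophil-like and in NK cell-like cells, 2 and 1 in T cell-like, 9 and 1 in tumour-like, and 1 mitotic each in cDC1-like and cDC2-like cells. Without the highest cell of each library, an alternative chosen after seeing the data, mitotic ratios were 0.426 in T cell-like and 1.24 in tumour-like cells, and members past 1.5-fold were 3 and 1 in cDC2-like, 0 and 0 in NK cell-like and 8 mitotic in tumour-like cells.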

Other observations

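Monocyte-macrophage-like cells with at least 3 mitotic UMIs at 4000 UMIs per cell (1094 and 1025) were set beside those with 0 (2567 and 2544) within each library. Among eligible genes outside every gene list used here, at 50 CPM or more, the 10 with the highest ratios are named, all higher in both libraries. They were Knl1, the kinetochore scaffold, at 291-fold and 110-fold (248 against 2 and 265 against 6 UMIs), the midbody gene Cep55 (74.8-fold and 94.0-fold), the histone genes H1f5 (17.2 and 18.3), H2ac24 (9.61 and 11.8) and H2ac8, the chromatin gene Hmgb3 (12.1 and 12.6), the kinase subunit gene Cks1b (10.1 and 9.67), the centromere gene Cenpw (8.59 and 8.47), the lamin gene Lmnb1 (6.98 and 9.77) and Hirip3 (5.55 and 6.92). The fold of Knl1 rests on a few UMIs in the cells with 0. Histone genes are near-identical copies, so the split of their counts is uncertain.

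Genes lower in cells with mitotic UMIs in both libraries included the chemokine genes Cxcl3 (ratio 0.257 and 0.314) and Ccl17 (0.265 and 0.747), the matrix genes Thbs1 (0.395 and 0.338) and Mmp19 (0.350 and 0.476), the lipid droplet gene Hilpda (0.426 and 0.455), the coagulation factor gene F10 (0.468 and 0.453), and Srgn, the granule proteoglycan, at 1107 against 2355 CPM and 992 against 2051 CPM. Rgcc, Slfn5 and Lilra6 were also lower. Of 14 genes induced by tissue dissociation, 13 were lower in both libraries (median ratio 0.738 and 0.792), as were 31.0% of all 10724 genes measured. All 4 MHC class II genes were lower in both (median 0.495 and 0.755), and so were both markers of each of the Arg1 Spp1, Nos2 Inhba, Mmp12 Gpnmb, Ly6c2 Plac8 and Car4 Vcan states.

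Vcan, a proteoglycan gene of monocytes, was seen in 37.7% and 40.8% of the cells with mitotic UMIs and in 48.3% and 41.0% of those without.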
